A study of Mus musculus with 12 samples.

Results

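The enzymes that add and remove the phosphate on JMJD1A were followed at the RNA level. A set of 10 genes was chosen by symbol: the PKA catalytic subunits *Prkaca* and *Prkacb*, the PKA regulatory subunits *Prkar1a*, *Prkar2a* and *Prkar2b*, the myosin phosphatase subunits *Ppp1r12a* and *Ppp1cb*, the kinases *Rock1* and *Rock2*, and the transcription factor *Creb1*. All 10 were among the 55401 gene IDs of the count files and all 10 were among the 16540 genes with enough counts for a test. The rule names genes by role and sets no limit on a measured value, but it was written with earlier results of these data known.

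PKA is the kinase of cyclic AMP. In its resting state regulatory subunits hold the catalytic subunits inactive, and cyclic AMP, made in adipocytes when noradrenaline from cold-activated sympathetic nerves binds β-adrenergic receptors, sets the catalytic subunits free. PKA then phosphorylates many proteins, among them hormone-sensitive lipase, CREB1 and a serine of JMJD1A, the histone demethylase encoded by *Kdm3a* (also named *Jmjd1a*). Myosin phosphatase, made of a targeting subunit (MYPT1, gene *Ppp1r12a*) and a catalytic subunit (PP1β, gene *Ppp1cb*), removes phosphate from JMJD1A, and ROCK1 and ROCK2 inhibit that phosphatase by phosphorylating its targeting subunit. RNA levels do not measure subunit protein, kinase activity or the phosphorylation of JMJD1A.

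RNA was taken from the scWAT, the subcutaneous white fat, of 12 female mice aged 16 weeks at the start, with 1 library per mouse and 3 per group. Wild-type (*Jmjd1a* +/+) and *Jmjd1a* HY/HY mice, here HY/HY animals, spent 1 week at 30°C in single cages and then 1 more week at 30°C (thermoneutral) or 8°C (cold). The HY allele, put into C57BL/6J eggs by genome editing, is carried by every cell of the body and encodes JMJD1A without demethylase activity, and the mice came from 1 edited line. The comparisons therefore ask how the RNAs of the kinase and the phosphatase changed with cold in each genotype, and whether the genotypes differed. Levels are given in CPM, counts of the sense strand per 1000000 after TMM scaling, in the order of replicates 1, 2 and 3. The libraries held 13592629 to 26352081 counts, and those at 8°C were all smaller than those at 30°C. Within a bulk tissue, fewer cells of a type and less RNA per cell cannot be told apart.

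Some libraries stood apart from their group. Replicate 3 of HY/HY animals at 30°C had a summed level of 8 white adipocyte markers of 57100 CPM, against 33431 and 24755 CPM in replicates 1 and 2. Replicate 3 of wild-type mice at 30°C was likewise high, at 47424 against 25806 and 30218 CPM. Replicate 2 of wild-type mice at 30°C had 1335 CPM of 8 skeletal muscle markers, where no other library exceeded 24.1 CPM. Values without these libraries are given where they change a call or much of a cold response.

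The members spanned a wide range of RNA levels. Per kb of exon, *Prkar2b*, the RIIβ regulatory subunit that predominates in fat, had the highest mean of the members in every group (in HY/HY animals at 30°C through replicate 3), with 80.9 ± 12.7 CPM per kb (SD, n = 3) in the wild type at 30°C. *Prkaca*, the Cα catalytic subunit, followed at 59.4 ± 8.54 CPM per kb, and *Prkar1a*, the RIα subunit, at 49.9 ± 2.31 CPM per kb. The ranges of these 3 genes did not overlap in that group. *Ppp1cb* came next at 22.9 ± 9.06 CPM per kb and *Ppp1r12a* at 13.9 ± 3.26 CPM per kb, and their ranges overlapped. *Rock2* (9.08 CPM per kb) and *Prkacb* (7.64 CPM per kb) stood apart from each other and from *Rock1*, while *Rock1* (4.93), *Prkar2a* (4.38) and *Creb1* (3.62 CPM per kb) each overlapped with the next in order. By the means of 3 libraries the first 5 places were held by the same genes in the same order in all 4 groups. In HY/HY animals at 30°C, however, *Prkar2b* was at 63.8, 60.8 and 185 CPM per kb and *Prkaca* at 62.7, 77.1 and 103 CPM per kb, with overlap, and the mean of replicates 1 and 2 was 62.3 for *Prkar2b* and 69.9 for *Prkaca*. At 8°C *Prkacb* stood above *Rock2* in both genotypes, without overlap of their ranges. Lengths come from an older annotation, so that levels per kb are approximate. The 3.48 kb used for *Ppp1r12a* may be too short, in which case its level per kb and its place are too high.

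RefSeq start sites of 9 of the 10 members (GRCm38.p6, 250 bases before to 50 after the start) were searched on both strands for the cyclic AMP response element bound by CREB1, in its full form TGACGTCA and as its core TGACG, which the full form contains. The windows below are those of the 3 members that passed the test in cold and of *Prkar1a*, the PKA member whose windows hold the full element. They run 5′ to 3′ on the strand of the gene, with cores and full elements in capitals.
*Prkaca*, chr8:83972728-83973027, plus strand: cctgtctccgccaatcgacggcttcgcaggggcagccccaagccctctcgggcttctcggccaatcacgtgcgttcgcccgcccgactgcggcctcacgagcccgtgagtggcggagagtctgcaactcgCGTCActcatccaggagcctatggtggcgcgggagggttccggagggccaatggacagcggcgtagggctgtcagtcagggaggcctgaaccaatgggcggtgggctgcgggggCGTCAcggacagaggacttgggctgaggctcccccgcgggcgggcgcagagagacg
*Prkar2a*, chr9:108691893-108692192, plus strand: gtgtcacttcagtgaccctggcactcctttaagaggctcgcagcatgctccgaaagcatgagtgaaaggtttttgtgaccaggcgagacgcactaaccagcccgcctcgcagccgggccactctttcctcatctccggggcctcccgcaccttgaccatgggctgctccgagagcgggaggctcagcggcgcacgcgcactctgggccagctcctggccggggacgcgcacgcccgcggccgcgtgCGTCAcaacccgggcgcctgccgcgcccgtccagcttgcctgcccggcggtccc
*Prkar2b*, chr12:32061228-32061527, minus strand: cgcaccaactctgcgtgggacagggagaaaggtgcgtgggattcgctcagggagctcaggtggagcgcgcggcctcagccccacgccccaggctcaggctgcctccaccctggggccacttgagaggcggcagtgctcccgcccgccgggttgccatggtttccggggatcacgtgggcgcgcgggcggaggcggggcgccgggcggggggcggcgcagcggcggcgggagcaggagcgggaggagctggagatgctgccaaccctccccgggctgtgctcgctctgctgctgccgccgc
*Prkar1a*, chr11:109650699-109650998, plus strand: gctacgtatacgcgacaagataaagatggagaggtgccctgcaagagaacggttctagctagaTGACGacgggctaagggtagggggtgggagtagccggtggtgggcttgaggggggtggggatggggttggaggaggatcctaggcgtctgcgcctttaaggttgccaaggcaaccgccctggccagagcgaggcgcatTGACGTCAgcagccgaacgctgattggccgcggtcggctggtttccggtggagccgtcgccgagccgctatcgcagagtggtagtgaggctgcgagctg
The *Prkaca* window holds 2 cores, which begin 120 and 6 bases before the start, and the *Prkar2a* window holds 1, which begins 4 bases before the start. The *Prkar2b* window has no core, and neither has the second start of that gene. In the *Prkar1a* window shown, the full element begins 49 bases before the start and another core begins 187 bases before it. Of the 18 member windows, 2 held the full element, both of them *Prkar1a* windows that overlap over the same copy. A core was in 8 windows, which belong to 6 of the 9 members. The 2 overlapping *Prkar1a* windows are among these 8 and share their cores. Of all 32851 windows of 300 bases, 1.79% held the full element and 20.8% a core. CCAAT, searched on both strands, was found 4 times in the *Prkaca* window and 1 time in the *Prkar1a* window shown. These were the 2 of 18 member windows with CCAAT, against 37.4% of all windows. The motif TCAAGGTCA of estrogen-related receptors was in none of the member windows and in 0.423% of all windows. A match to a motif is a description of the letters and shows no binding.

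Cold raised 3 of the 10 members in wild-type scWAT, all of them PKA subunits: *Prkaca*, *Prkar2a* and *Prkar2b* (*Prkaca* and *Prkar2b* alone with library totals in place of TMM). Genes were called at an adjusted p-value under 0.05 in edgeR's quasi-likelihood test over all 16540 genes, a call that 13.2% of all genes met upward. Without replicate 2 of the wild type at 30°C, or without replicate 2 or 3 at 8°C, *Prkaca* alone was called. In the first of these fits fewer of all genes were called too, 9.05% higher and 4.81% lower. With all 12 libraries on the TMM scale no member was called lower, while 10.9% of all genes were. The 3 libraries of the groups did not overlap in 6 members, 5 higher at 8°C and 1 lower, against 43.4% of all genes. The members' median log2 fold change was 0.21, beside −0.07 for all genes.

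In edgeR's fit of all 12 libraries without covariates, no member passed the test in the other 4 comparisons. In HY/HY animals, cold raised 0.181% and lowered 0.0726% of all genes, and 3 of 10 members had an unadjusted p under 0.05, as did 14.7% of all genes. Their libraries did not overlap in 1 member, *Prkar2a*, against 18.3% of all genes. Between the genotypes at 30°C, 0.568% of all genes were higher and 0.49% lower in HY/HY animals, 1 member had an unadjusted p under 0.05 (18.6% of all genes), and 0 members against 18.3% of all genes were without overlap. At 8°C, 1.91% of all genes were higher and 5.45% lower, 1 member had an unadjusted p under 0.05 (22.4% of all genes), and 3 members against 35.4% of all genes were without overlap. For the interaction, the cold response of HY/HY animals less that of the wild type, 0.169% of all genes were higher and 2.07% lower, and 1 member had an unadjusted p under 0.05 (15% of all genes). Without replicate 3 of the HY/HY group at 30°C, 3.24% of all genes were called higher and 1.64% lower for cold in HY/HY animals. In that fit 2 members (*Prkar2a* and *Prkar2b*) were called for this comparison. With DESeq2 the numbers of members called were 1 for that comparison and 0 for the genotypes at 30°C, at 8°C and for the interaction. The members' median log2 fold changes in these 4 comparisons were 0.19, 0.21, 0.10 and −0.03, beside −0.01, −0.01, 0.01 and 0.04 for all genes. The comparisons share groups, so that the wild-type cold response, the difference at 8°C and the interaction are not independent of each other.

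**Figure D1:**
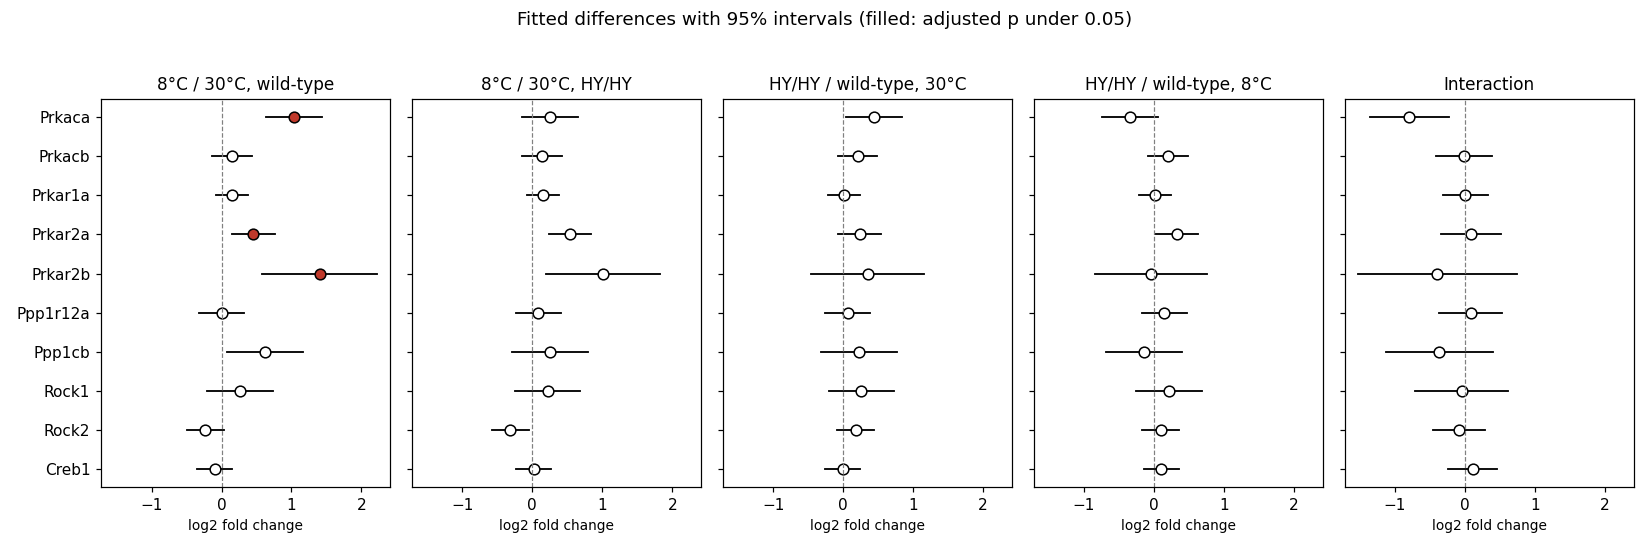
Fitted log2 fold change of each member (points) with its 95% interval (lines) in the 5 comparisons; filled points passed an adjusted p under 0.05. *Prkaca*, *Prkar2a* and *Prkar2b* are the filled points, all in the wild-type cold response, and the interval of the *Prkaca* interaction runs from −1.36 to −0.23.

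Of the catalytic subunits, *Prkaca* (ENSMUSG00000005469.10, chromosome 8 from 83972978 to 83996444 on GRCm38) was the member with the smallest adjusted p in cold. It was at 127, 125 and 160 CPM in wild-type mice at 30°C and at 259, 274 and 314 CPM at 8°C. In HY/HY animals it was at 145, 178 and 238 CPM at 30°C and at 213, 197 and 256 CPM at 8°C. The wild-type groups were far apart, while the HY/HY groups overlapped. At 8°C each HY/HY library lay below each wild-type library.

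*Prkaca* rose 2.05-fold with cold in wild-type mice (log2 fold change 1.04 ± 0.185, SE; 95% interval 0.63 to 1.44; adjusted p = 0.00237), and the call held under all 21 alternatives. In HY/HY animals the difference was 0.25 (interval −0.15 to 0.65, adjusted p = 0.57), with 0.09 without replicate 1 and 0.46 without replicate 3 at 30°C. The interaction was −0.79 ± 0.26 (interval −1.36 to −0.23), with an unadjusted p of 0.0102 and an adjusted p of 0.164. HY/HY animals differed from wild-type mice by 0.44 at 30°C (adjusted p = 0.224; 0.24 without HY/HY replicate 3) and by −0.35 at 8°C (adjusted p = 0.294). Without replicate 3 of both genotypes at 30°C, an alternative chosen after the values were seen, the cold response was 1.17 in wild-type and 0.46 in HY/HY animals (adjusted p = 0.000347 and 0.0762) and the interaction was −0.71 (adjusted p = 0.0908).

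*Prkacb* (ENSMUSG00000005034.15, chromosome 3 from 146729579 to 146812946), the Cβ subunit, was not called in any comparison. It was at 45.7, 42.9 and 36.7 CPM in wild-type mice and at 43.6, 42.5 and 58.4 CPM in HY/HY animals at 30°C. At 8°C it was at 45.9, 47.4 and 45.4 CPM in wild-type and at 49.3, 53.2 and 56.3 CPM in HY/HY animals, which lay above the wild-type libraries without overlap. Its cold responses were 0.15 in wild-type and 0.14 in HY/HY animals on the log2 scale (adjusted p = 0.433 and 0.661), the latter 0.30 without replicate 3 at 30°C, and the difference between the genotypes at 8°C was 0.20 (interval −0.09 to 0.48, adjusted p = 0.416).

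The regulatory subunit *Prkar2b* (ENSMUSG00000002997.15, chromosome 12 from 31958450 to 32061648) was the member with the largest fold change in cold. In wild-type mice it was at 266, 271 and 349 CPM at 30°C and at 666, 788 and 890 CPM at 8°C. In HY/HY animals it was at 233, 222 and 676 CPM at 30°C and at 589, 721 and 968 CPM at 8°C. All wild-type libraries at 8°C lay above those at 30°C, whereas in HY/HY animals replicate 3 at 30°C reached into the range of the cold libraries.

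*Prkar2b* rose 2.64-fold with cold in wild-type mice (log2 fold change 1.40 ± 0.376, SE; interval 0.58 to 2.22; adjusted p = 0.0198). The adjusted p was over 0.05 without replicate 1 or 2 at 30°C (0.0655 and 0.0681) and without replicate 2 or 3 at 8°C (0.0525 and 0.0676) of that genotype. In HY/HY animals the difference was 1.01 (interval 0.20 to 1.82, adjusted p = 0.247). Without their replicate 3 at 30°C it was 1.74, with an adjusted p of 0.00516, so that 1 library decided whether *Prkar2b* was called there. The interaction was −0.39 (interval −1.53 to 0.75, adjusted p = 0.768) and 0.33 without that library. The genotypes differed by −0.04 at 8°C (interval −0.85 to 0.76, adjusted p = 0.965).

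*Prkar2a* (ENSMUSG00000032601.13, chromosome 9 from 108692143 to 108750444), the RIIα subunit, was low in scWAT. It was at 20.3, 17.6 and 17.1 CPM in wild-type mice and at 17.7, 22.1 and 25.1 CPM in HY/HY animals at 30°C. At 8°C it was at 28.4, 24.4 and 22.5 CPM in wild-type and at 32.9, 29.9 and 31.5 CPM in HY/HY animals. The cold libraries lay above the 30°C libraries in both genotypes, and at 8°C those of HY/HY animals lay above those of wild-type mice.

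The cold response of *Prkar2a* was 0.45 ± 0.141 (SE; interval 0.14 to 0.76; adjusted p = 0.0369) in wild-type mice and 0.54 ± 0.14 (interval 0.24 to 0.85; adjusted p = 0.134) in HY/HY animals, with an interaction of 0.09 (adjusted p = 0.873). The wild-type call was lost under 9 of 21 alternatives. The adjusted p was 0.107 and 0.0815 without replicate 2 or 3 of wild-type mice at 30°C, 0.131, 0.0797 and 0.0508 without replicate 1, 2 or 3 of wild-type mice at 8°C, and 0.0507 and 0.0508 without replicate 1 or 2 of HY/HY animals at 8°C. In HY/HY animals the adjusted p was 0.0291 with DESeq2 and 0.0299 without their replicate 3 at 30°C. The genotypes differed by 0.33 at 8°C (interval 0.02 to 0.63, adjusted p = 0.197).

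*Prkar1a* (ENSMUSG00000020612.16, chromosome 11 from 109649023 to 109669663), the type I regulatory subunit, lay between 216 and 268 CPM in all 12 libraries. It was at 240, 231 and 219 CPM in wild-type and at 224, 216 and 253 CPM in HY/HY animals at 30°C, and at 245, 258 and 259 CPM and 244, 268 and 258 CPM at 8°C. The wild-type libraries at 8°C lay above those at 30°C by a small margin, with a log2 fold change of 0.15 (interval −0.09 to 0.38, adjusted p = 0.337). The genotypes differed by 0.008 at 30°C and 0.015 at 8°C (intervals −0.22 to 0.24 and −0.22 to 0.25).

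**Figure D2:**
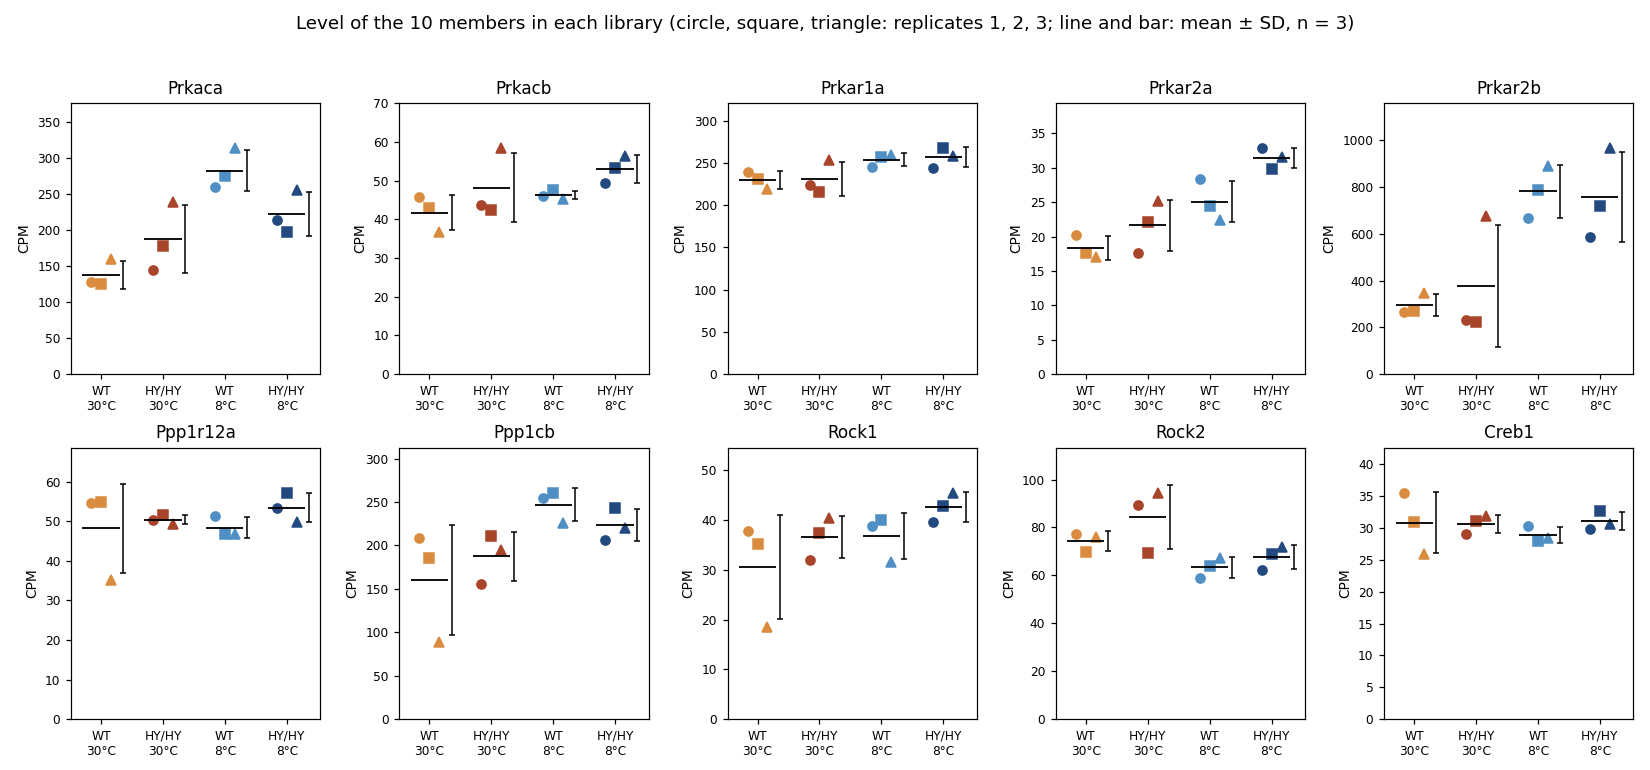
CPM (TMM-scaled) of the 10 members in each of the 12 libraries by group, with the mean and SD of 3 libraries. *Prkaca*, *Prkar2a* and *Prkar2b* are higher in wild-type mice at 8°C than at 30°C without overlap, and HY/HY replicate 3 at 30°C stands apart in *Prkar2b* at 676 CPM.

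Replicate 3 had the highest *Prkaca* and *Prkar2b* level in all 4 groups, and the highest summed level of the 8 white adipocyte markers in all 4 groups. That sum ran from 25806 to 47424 CPM (wild-type, 30°C), from 24755 to 57100 CPM (HY/HY, 30°C), from 33245 to 41005 CPM (wild-type, 8°C) and from 41945 to 58826 CPM (HY/HY, 8°C), with none of the markers at 0. Of these markers, 2 of 8 fell with cold in wild-type mice (0 without replicate 2 or without replicate 3 at 30°C) and 0 of 8 passed the test for cold in HY/HY animals (1 without their replicate 3 at 30°C). Of the thermogenic adipocyte markers, 7 of 8 rose with cold in wild-type mice, from 85.5 to 213 CPM in sum at 30°C to 8360 to 9278 CPM at 8°C. In HY/HY animals 3 of 8 rose (6 without replicate 3 at 30°C), from 72.0 to 256 CPM to 543 to 1688 CPM. Among all genes, 13.2% rose and 10.9% fell with cold in wild-type mice, and 0.181% rose and 0.0726% fell in HY/HY animals. The part of either cell type in the levels of *Prkaca* and *Prkar2b* was not tested.

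**Figure D3:**
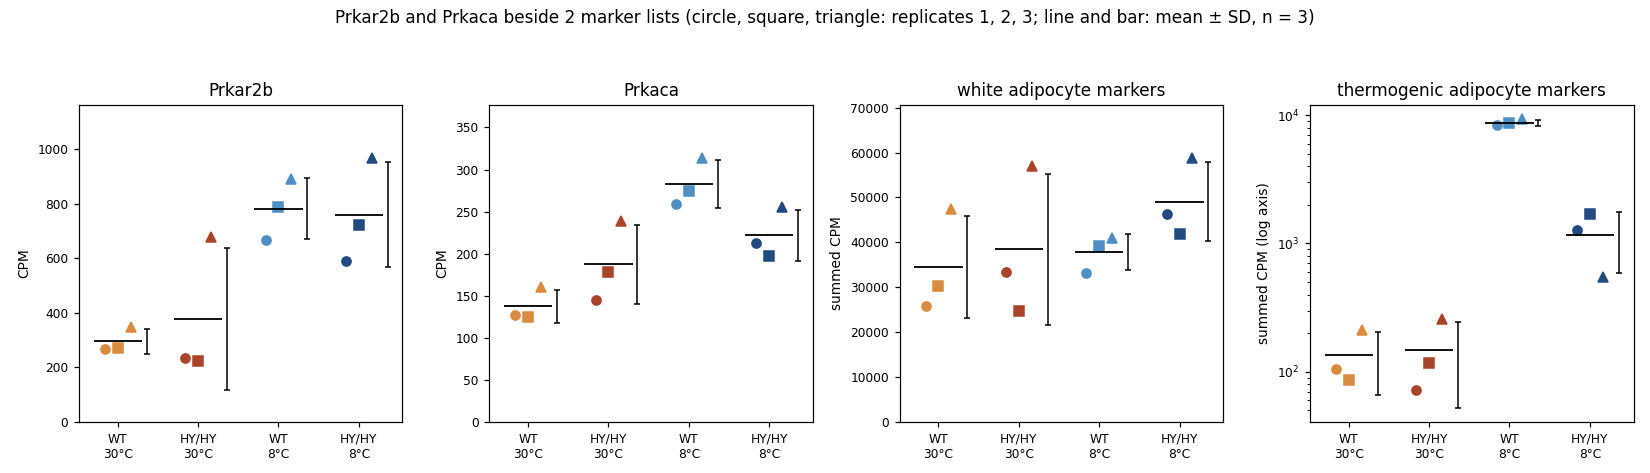
*Prkar2b* and *Prkaca* (CPM) and the summed CPM of 8 white adipocyte and 8 thermogenic adipocyte markers (log axis for the latter) in each library, with mean and SD. Replicate 3 is the highest of its group in the first 3 panels, while the thermogenic sum sets the wild-type cold libraries, at 8360 to 9278 CPM, apart from all others.

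The phosphatase genes did not pass the test in any of the 5 comparisons in edgeR's fit of all 12 libraries. *Ppp1r12a* (ENSMUSG00000019907.10, chromosome 10 from 108162092 to 108279985), the targeting subunit that brings the phosphatase to its substrates, was at 54.7, 54.9 and 35.2 CPM in wild-type and 50.3, 51.7 and 49.3 CPM in HY/HY animals at 30°C. At 8°C it was at 51.5, 46.9 and 46.8 CPM in wild-type and 53.5, 57.3 and 49.8 CPM in HY/HY animals. Replicate 3 of wild-type mice at 30°C was the lowest library, and all other libraries lay between 46.8 and 57.3 CPM. Its cold responses were 0.0025 (interval −0.32 to 0.32) in wild-type and 0.09 (interval −0.23 to 0.41) in HY/HY animals. Without that library the wild-type value was −0.18 (adjusted p = 0.177), and 0.11 without replicate 2 at 30°C.

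*Ppp1cb* (ENSMUSG00000014956.15, chromosome 5 from 32458848 to 32493713), the PP1β catalytic subunit, was at 208, 185 and 88.6 CPM in wild-type and at 156, 211 and 195 CPM in HY/HY animals at 30°C. At 8°C it was at 255, 261 and 226 CPM in wild-type and at 207, 244 and 221 CPM in HY/HY animals. The wild-type groups did not overlap, and replicate 3 at 30°C was the farthest from the cold libraries. The cold response was 0.62 (interval 0.08 to 1.16, adjusted p = 0.0888) in wild-type mice and 0.26 (interval −0.29 to 0.80, adjusted p = 0.673) in HY/HY animals. In wild-type mice the adjusted p was 0.0438 with DESeq2 and 0.0482 without replicate 1 at 30°C, while the difference was 0.33 without replicate 3 at 30°C and 0.33 (adjusted p = 0.111) without replicate 3 of both genotypes at 30°C. The interaction was −0.36 (interval −1.13 to 0.40, adjusted p = 0.673), and −0.07 without wild-type replicate 3 at 30°C.

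The ROCK kinases had no call either. *Rock1* (ENSMUSG00000024290.9, chromosome 18 from 10064401 to 10182251) was at 37.8, 35.1 and 18.5 CPM in wild-type and 32.0, 37.5 and 40.3 CPM in HY/HY animals at 30°C. At 8°C it was at 38.8, 40.0 and 31.5 CPM in wild-type and 39.5, 42.9 and 45.5 CPM in HY/HY animals. Replicate 3 of wild-type mice at 30°C was again the lowest library. The cold response of *Rock1* was 0.27 in wild-type and 0.22 in HY/HY animals (adjusted p = 0.392 and 0.676), and the wild-type value was 0.012 without that library and 0.45 without replicate 1 at 30°C.

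*Rock2* (ENSMUSG00000020580.10, chromosome 12 from 16894978 to 16988274) had a lower mean in cold in both genotypes, without a call on the TMM scale. It was at 77.3, 69.8 and 76.1 CPM in wild-type and 89.3, 69.2 and 94.5 CPM in HY/HY animals at 30°C, and at 58.8, 64.0 and 67.2 CPM and 62.4, 68.8 and 71.9 CPM at 8°C. The wild-type groups did not overlap and the HY/HY groups did. The differences were −0.23 (interval −0.50 to 0.03, adjusted p = 0.181) and −0.32 (interval −0.58 to −0.05, adjusted p = 0.261).

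*Creb1* (ENSMUSG00000025958.14, chromosome 1 from 64532794 to 64604548), whose protein binds the cyclic AMP response element and is activated by PKA, was at 35.5, 31.0 and 25.9 CPM in wild-type and 29.1, 31.1 and 31.8 CPM in HY/HY animals at 30°C. At 8°C it was at 30.2, 27.9 and 28.4 CPM and at 29.9, 32.6 and 30.6 CPM. The 4 groups overlapped in every comparison, and the intervals of its 4 differences ran from −0.34 at the lowest to 0.36 at the highest. *Kdm3a* (ENSMUSG00000053470.13, chromosome 6 from 71588970 to 71632990), which encodes the substrate and carries the HY allele, was at 46.5, 61.7 and 39.8 CPM in wild-type and 52.7, 46.4 and 37.4 CPM in HY/HY animals at 30°C. At 8°C it was at 35.7, 42.9 and 41.1 CPM in wild-type and 45.8, 43.2 and 45.3 CPM in HY/HY animals. The genotypes differed by −0.12 at 30°C and 0.17 at 8°C (adjusted p = 0.753 and 0.604), and counts per gene do not separate the alleles.

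These values depend on how the libraries were scaled. With library totals in place of TMM the median of all genes in the wild-type cold response was −0.41 instead of −0.07. On that scale *Prkaca* (0.71, adjusted p = 0.00206) and *Prkar2b* (1.07, adjusted p = 0.0153) were still called, *Prkar2a* was not (0.11, adjusted p = 0.539), and *Rock2* (−0.57, adjusted p = 0.00443) and *Creb1* (−0.44, adjusted p = 0.0362) were called lower. *Prkacb* (−0.20), *Prkar1a* (−0.20), *Ppp1r12a* (−0.35) and *Rock1* (−0.09) had the opposite sign there, without a call. Ratios of members within a library do not depend on this choice.

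A set of 6 ratios was compared between groups by an exact permutation test (two-sided, 3 libraries against 3), whose smallest p is 0.1. Over the 24 tests the smallest adjusted p was 0.267, so that none passed. The ratio of *Prkaca* to *Prkacb* counts was 2.79, 2.92 and 4.37 in wild-type mice at 30°C and 5.64, 5.78 and 6.92 at 8°C. The HY/HY values were 3.33, 4.19 and 4.08 at 30°C and 4.32, 3.71 and 4.54 at 8°C. The wild-type cold libraries lay above all others, by 0.89 on the log2 scale against wild-type mice at 30°C (exact permutation p = 0.1), and the HY/HY libraries lay below them by −0.54 at 8°C (exact permutation p = 0.1).

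Among the regulatory subunits, *Prkar2b* had a larger mean share of the RNA in cold in both genotypes. Per kb, *Prkar2b* made up 59.6 ± 4.69% (SD, n = 3) of the RNA of the 3 regulatory members in wild-type mice at 30°C and 77.6 ± 2.27% at 8°C. The HY/HY share was 61.2 ± 12.1% at 30°C and 76.1 ± 4.14% at 8°C. The ratio of *Prkar2b* to *Prkar1a* counts was 1.11, 1.18 and 1.60 in wild-type mice at 30°C and 2.72, 3.06 and 3.43 at 8°C, without overlap (exact permutation p = 0.1). In HY/HY animals it was 1.04, 1.03 and 2.67 at 30°C and 2.41, 2.69 and 3.75 at 8°C, and replicate 3 at 30°C overlapped with the cold libraries. The log2 difference of the ratio of *Prkar2b* to *Prkar2a* in cold was 0.95 in wild-type mice, without overlap, and 0.63 in HY/HY animals, with overlap. The HY/HY value was 1.04 without replicate 3 and 0.33 without replicate 2 at 30°C.

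*Prkaca* and *Prkar2b* both rose in wild-type mice, and the ratio of catalytic to regulatory RNA per kb differed little there. It was 0.488, 0.481 and 0.516 at 30°C and 0.496, 0.458 and 0.471 at 8°C, with overlap (log2 difference −0.06, exact permutation p = 0.3). The HY/HY values were 0.606, 0.751 and 0.462 at 30°C and 0.455, 0.362 and 0.368 at 8°C, without overlap (log2 difference −0.60, exact permutation p = 0.1). That difference was −0.78 without replicate 3 and −0.43 without replicate 2 of HY/HY animals at 30°C. At 8°C the HY/HY libraries lay below the wild-type libraries (log2 difference −0.27, exact permutation p = 0.1).

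The RNA of the targeting subunit relative to that of the catalytic subunit was lowest in the wild-type cold libraries. In wild-type mice the ratio of *Ppp1r12a* to *Ppp1cb* counts was 0.263, 0.297 and 0.397 at 30°C and 0.202, 0.180 and 0.207 at 8°C, without overlap (log2 difference −0.68, exact permutation p = 0.1). That difference was −0.51 without wild-type replicate 3 and −0.81 without wild-type replicate 1 at 30°C. The HY/HY values were 0.323, 0.245 and 0.253 at 30°C and 0.259, 0.235 and 0.226 at 8°C, with overlap (log2 difference −0.18, exact permutation p = 0.3). At 8°C the HY/HY libraries lay above the wild-type libraries (log2 difference 0.29, exact permutation p = 0.1). The ratio of *Rock1* to *Rock2* was 0.56 higher on the log2 scale in cold in wild-type mice, with overlap, and 0.53 higher in HY/HY animals, without overlap. The wild-type value was 0.22 without replicate 3 at 30°C.

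**Figure D4:**
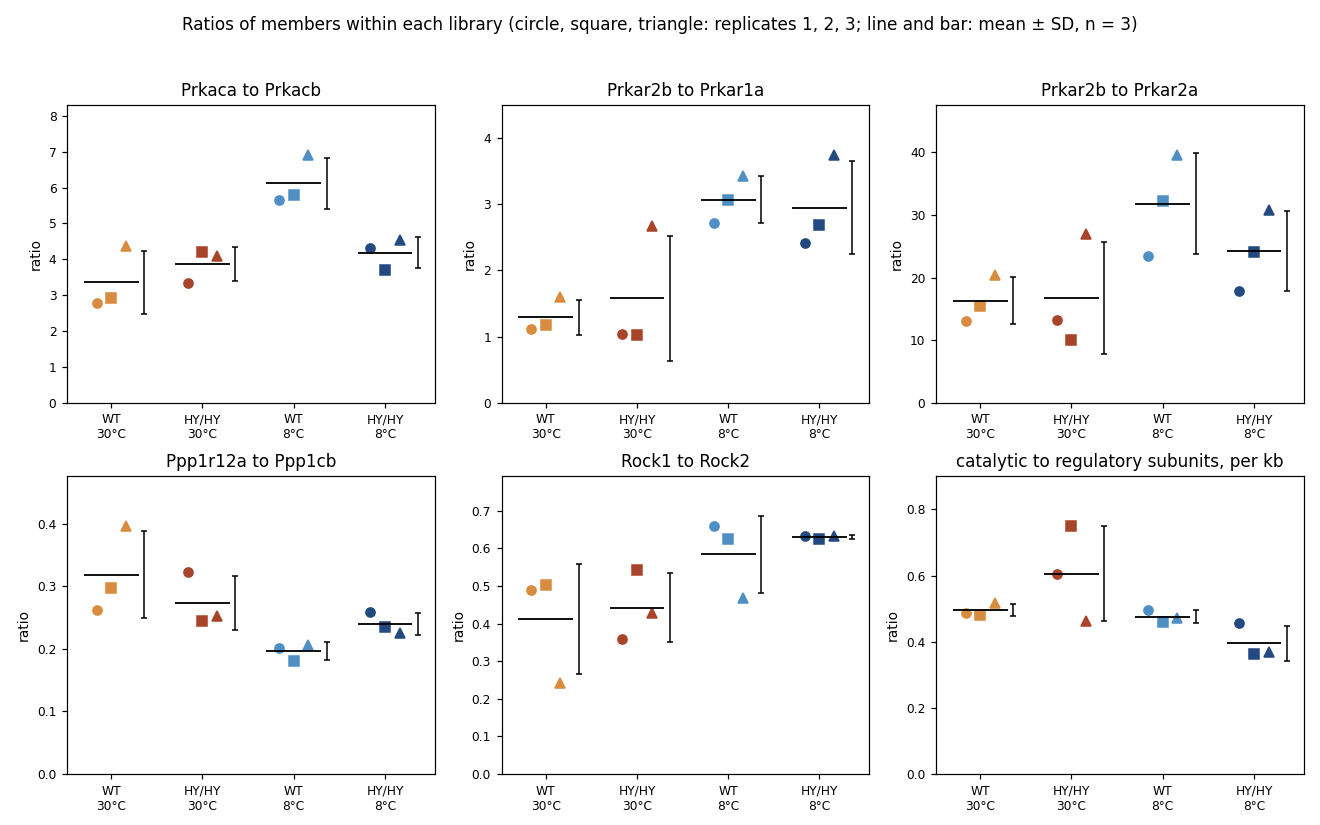
Ratio of counts of 2 members in each library (linear axes), and of summed catalytic to summed regulatory subunits per kb, by group with mean and SD of 3 libraries. The ratio of *Prkaca* to *Prkacb* is 5.64 to 6.92 in wild-type mice at 8°C, above all other libraries, and that of *Ppp1r12a* to *Ppp1cb* is at its lowest there.

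The genes whose log2 CPM followed each member most closely over the 12 libraries, which share depth and scaling, are given as a description. For *Prkaca* these were *Mrpl16*, a mitochondrial ribosomal protein (Pearson r = 0.983), *A530053G22Rik* (0.983) and *Nudt19*, a peroxisomal CoA hydrolase (0.981). Among the 3 nearest to *Prkar2b* were *Txlng* (0.978) and *2810055F11Rik* (0.975). The closest to *Ppp1cb* was *Phf20l1* (0.970), to *Ppp1r12a* *Setd5* (0.970) and to *Rock1* *B630005N14Rik* (0.973). For *Prkacb* it was *Chml* (0.970), for *Prkar2a* *Vps13c* (0.957), for *Rock2* *Gatsl3* (0.941) and for *Creb1* *Sox4* (0.902).

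The other genes of the pathway were counted in lists. Of the 77 listed genes tested, 17 (22.1%) rose and 7 (9.09%) fell with cold in wild-type mice, beside 13.2% and 10.9% of all genes. Without wild-type replicate 2 at 30°C these counts were 11 and 1, beside 9.05% and 4.81% of all genes, and of the genes named below as called in wild-type cold, *Pkig*, *Akap8l*, *Ppp1ca*, *Ppp1r1a*, *Ppp1r1b*, *Limk2*, *Atf2*, *Crtc3* and *Nr4a2* were then not called (adjusted p from 0.0564 to 0.112). Without wild-type replicate 3 at 30°C, 15 rose and 8 fell, beside 13.8% and 12.8% of all genes. *Atf2* (adjusted p = 0.0802) and *Nr4a1* (adjusted p = 0.102) were then not called. Of 5 further PKA subunits and PKA inhibitors, 1 fell with cold in wild-type mice and 0 rose. That gene was *Pkig*, the γ isoform of the protein kinase inhibitor, at 51.5, 49.0 and 42.5 CPM at 30°C and 31.9, 34.5 and 38.7 CPM at 8°C (log2 fold change −0.44, adjusted p = 0.0369). Of 16 anchoring proteins of PKA, 5 rose and 1 fell. *Arfgef2*, a guanine nucleotide exchange factor that binds PKA, rose by 0.86 (adjusted p = 6.1e-05), *Opa1*, which fuses inner mitochondrial membranes and anchors PKA at lipid droplets, by 1.15 (adjusted p = 0.000171) and *Akap1*, which anchors PKA at the outer mitochondrial membrane, by 0.92 (adjusted p = 0.00253). *Akap8l*, a nuclear anchoring protein, fell (−0.45, adjusted p = 0.0165).

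Of 6 other PP1 catalytic and MYPT family genes, 1 rose with cold in wild-type mice. It was *Ppp1ca*, the PP1α catalytic subunit, at 219, 209 and 259 CPM at 30°C and 307, 311 and 298 CPM at 8°C (log2 fold change 0.42, adjusted p = 0.0228). Of 7 inhibitors of PP1, 2 rose and 1 fell. *Ppp1r14b*, of the family that inhibits myosin phosphatase, rose by 0.50 (adjusted p = 0.0147), and *Ppp1r1a*, which inhibits PP1 once PKA has phosphorylated it, rose by 0.82 (adjusted p = 0.0306). *Ppp1r1b* (DARPP-32) fell (−1.61, adjusted p = 0.0293), at 1.0 to 6.2 CPM in the wild-type libraries. Of 21 genes of the ROCK pathway, 4 rose and 2 fell. Those with the smallest adjusted p were the guanine nucleotide exchange factors *Arhgef11* (0.48, adjusted p = 0.00741) and *Arhgef12* (0.44, adjusted p = 0.00838), the myosin light chain kinase *Mylk* (0.59, adjusted p = 0.00973) and the LIM kinase *Limk2*, which fell (−0.69, adjusted p = 0.0176).

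Of 11 CREB family members and coactivators, 1 rose and 2 fell with cold in wild-type mice: *Atf2* rose by 0.47 (adjusted p = 0.0317), and the coactivators *Crtc1* (−0.69, adjusted p = 0.0119) and *Crtc3* (−0.45, adjusted p = 0.0248) fell. Of 11 known CREB target genes, 4 rose and 0 fell. *Ppargc1a*, which encodes PGC-1α and is also among the thermogenic markers, was at 3.4, 5.1 and 3.3 CPM at 30°C and 17.6, 35.9 and 25.7 CPM at 8°C (log2 fold change 2.72, adjusted p = 0.000298). *Dusp1*, a MAP kinase phosphatase, rose by 1.87 (adjusted p = 0.00341), and the nuclear receptor genes *Nr4a2* by 1.00 (adjusted p = 0.0177) and *Nr4a1* by 1.16 (adjusted p = 0.043). This call of *Nr4a1* held in 5 of the 12 fits without 1 library (adjusted p from 0.0147 to 0.199). The medians of the 7 lists ran from −0.43 (PKA subunits and inhibitors) to 0.79 (CREB targets), beside −0.07 for all genes.

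In HY/HY animals none of the 77 listed genes tested passed for cold in edgeR's fit of all 12 libraries. In that fit cold raised 0.181% and lowered 0.0726% of all genes. Of the 77 listed genes, 18 (23.4%) had an unadjusted p under 0.05, beside 14.7% of all genes. Without replicate 3 at 30°C, 5 rose and 1 fell there, beside 3.24% and 1.64% of all genes. Between the genotypes at 8°C, 5 (6.49%) were lower in HY/HY animals and 0 higher, a share near the 5.45% of all genes. *Ppargc1a* was at 8.5, 14.6 and 8.4 CPM in HY/HY animals, below all wild-type cold libraries (log2 fold change −1.33, adjusted p = 0.0346), and its interaction was −2.19 (adjusted p = 0.039). With each of the 12 libraries left out in turn, the interaction of *Ppargc1a* kept its direction but was called in 3 fits (adjusted p from 0.014 to 0.116), and its difference at 8°C was called in 8 (0.0208 to 0.148). *Nr4a1* was at 5.4, 6.4 and 3.8 CPM against 10.6, 13.3 and 23.4 CPM (log2 fold change −1.59, adjusted p = 0.0302). *Akap5* (−2.37, adjusted p = 0.033), at 0.5 to 8.0 CPM, *Arfgef2* (−0.36, adjusted p = 0.0265) and *Ppp1r14b* (−0.49, adjusted p = 0.0365) were the others. Their calls, and that of *Nr4a1*, held in 6 to 8 of the 12 fits without 1 library. At 30°C, 1 gene, *Mylk*, was higher in HY/HY animals, at 51.6, 66.2 and 63.7 CPM against 40.2, 39.5 and 30.0 CPM (log2 fold change 0.72, adjusted p = 0.0357), a call that held in 2 of the 12 fits without 1 library (adjusted p up to 0.083). *Mylk* is also a smooth muscle marker, and the summed level of the 8 smooth muscle markers was 449 to 747 CPM in HY/HY and 330.0 to 459 CPM in wild-type mice at 30°C, with 1 of 8 past the test.

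**Figure D5:**
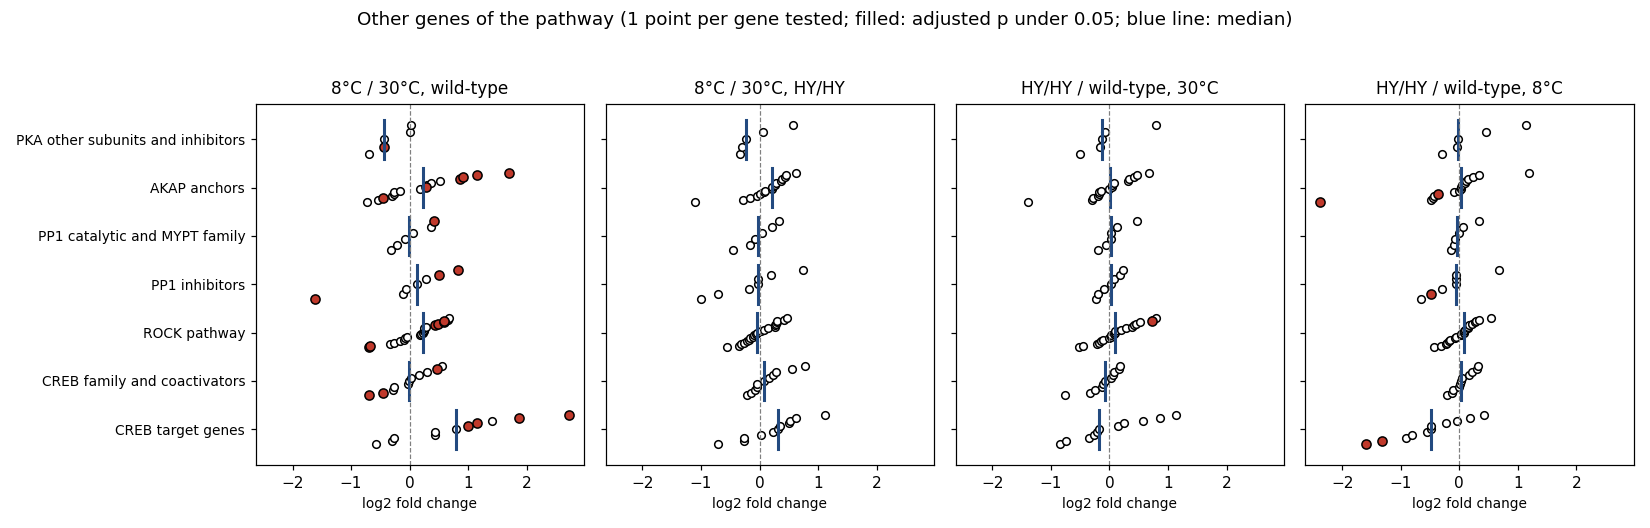
Log2 fold change of each tested gene of the 7 pathway lists in 4 comparisons, with the list's median as a blue line and filled points for an adjusted p under 0.05. The CREB targets have the highest median, 0.79, in the wild-type cold response. No point is filled for cold in HY/HY animals, where 0.181% of all genes were called higher and 0.0726% lower.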

How the data were processed

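RNA-seq of scWAT from 12 mice (4 groups of 3, from the labels) was analysed. The authors trimmed paired 50-base reads with fastp, used STAR for alignment to mm10, and the deposited files hold unnormalized counts of read pairs per gene of GENCODE M25 (versions are not given in the sources used here). Pairs aligned to several places (26.7% to 32.2%) were not counted, and the 4 entries that name no gene were left out of library sizes. The deposited counts on the sense strand were used here; 32589 of 55401 IDs matched a symbol, and 2645 IDs that share a symbol were left unnamed. Exon lengths came from the GENCODE M1 annotation of another build and were used as lengths alone. Coordinates and promoter windows are those of RefSeq for GRCm38.p6, the build also called mm10.

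The test was run with edgeR 4.0.16 (R 4.3.3): filterByExpr on the 4 groups kept 16540 genes, TMM scaled the libraries, and quasi-likelihood fits used all 12 libraries with a mean for each group and no covariates. The 5 comparisons were cold in each genotype, genotype at each temperature and their interaction, with two-sided p-values adjusted by Benjamini and Hochberg over all genes kept. The fit was tested on simulated data. Ratios were compared by exact permutation. Alternatives were DESeq2 1.42.0, library totals, no mitochondrial genes, no filter, at least 10 counts in every library, the libraries of the comparison alone, each library left out, the replicate number as a block, unstranded counts, a fold limit of 1.5 or 0.67 and, for ratios, a pseudocount of 0.5. Leaving out both replicate 3 libraries at 30°C, and reading the lists without single libraries, were added after seeing the data. The members, 7 pathway lists and 9 marker lists were chosen with earlier results of these data known. Named were all members, *Kdm3a*, up to 4 genes per pathway list and comparison with the smallest adjusted p under 0.05, and the 3 genes nearest each member by Pearson r of log2 CPM (prior count 2), of which the nearest is printed for 7 members; 1 gene near *Prkar2b* and those near *Prkar1a* are not reported here. Replicate mice within a group differed beyond counting noise.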

Additional observations from a re-analysis of the deposited data

Results flagged for a closer look

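In the fit of all 12 libraries without covariates, *Ppargc1a* was the one gene of the members and pathway lists called for the interaction. Its cold response in HY/HY animals minus that in wild-type mice was −2.19 on the log2 scale (edgeR's quasi-likelihood test, adjusted p = 0.039), with 8.5, 14.6 and 8.4 CPM in HY/HY animals at 8°C against 4.6, 7.2 and 10.2 CPM at 30°C. The direction was the same in the 12 fits that left out 1 library each (−2.51 to −1.90), and the call held in 3 of them (adjusted p from 0.014 to 0.116). No member met that test in the fit without covariates. *Ppargc1a* was 1 of the 77 listed genes tested (1.3%), beside 0.169% of all genes higher and 2.07% lower in the interaction. Without wild-type replicate 3 at 30°C, *Opa1* was called for the interaction (−0.84, adjusted p = 0.0477) and *Ppargc1a* was not (adjusted p = 0.0594). *Akap5* was called for it in 1 of the 12 fits without 1 library.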

How the results depend on the processing

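Of 1040 values of the members under alternatives, 950 kept their direction and their side of the threshold, 67 uncalled values changed sign, 13 lost a call and 10 gained one. No called value changed sign. The number of members called for cold in wild-type mice was 3, and ranged from 1 to 3 with single libraries left out. The 1 left was *Prkaca*, with wild-type replicate 2 at 30°C left out and with wild-type replicate 2 or 3 at 8°C left out. In the first of these fits 9.05% of all genes were called higher and 4.81% lower. The number was 4 with DESeq2, which added *Ppp1cb*, and 2 without a filter on low counts. With library totals it was also 4, where *Rock2* and *Creb1* were called lower and *Prkar2a* was not called. For cold in HY/HY animals the number was 0. It was 1 with DESeq2 (*Prkar2a*), 2 without both replicate 3 libraries at 30°C, and 0 to 2 with single libraries left out. The 2 were *Prkar2a* and *Prkar2b*, without replicate 3 of HY/HY animals at 30°C. In that fit 3.24% of all genes were called higher and 1.64% lower. The cause was not tested.

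With the replicate number as a block, 1 member was called for the interaction (*Prkaca*, −0.78, adjusted p = 0.0317) and no other count of members moved. The labels do not say whether libraries with the same number share a batch or day. Deviations of libraries with the same number correlated from −0.069 to 0.346 over the pairs of groups, and from 0.114 to 0.346 between replicate 3 libraries. Of the 12 libraries, each set against those of the other groups, 7 correlated best with a library of their own number. No chance level was worked out for that count. The number of ratio tests passed was 0 throughout, in a design that cannot go below p = 0.1 with an exact permutation test.

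Counts of 321 to 13872 per member and library leave little counting error, and the spread between 3 mice limits the intervals. Library scaling, the libraries named above and exon lengths of an older annotation are the main limits. Myosin phosphatase activity, PKA activity and JMJD1A phosphorylation were not analysed here.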

Other observations

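Marker lists of other cells in scWAT moved with the groups beside the PKA genes, with counts from edgeR's quasi-likelihood test. Cold raised 13.2% and lowered 10.9% of all genes in wild-type mice, and raised 0.181% and lowered 0.0726% in HY/HY animals. Between the genotypes at 8°C, 1.91% of all genes were higher and 5.45% lower in HY/HY animals. Of 6 endothelial markers, 4 rose with cold in wild-type mice (*Kdr*, *Cdh5*, *Pecam1* and *Emcn*), from 459 to 676 CPM in sum at 30°C to 811 to 1110 CPM at 8°C, and 0 passed in HY/HY animals, at 649 to 755 and 658 to 843 CPM. Of 7 macrophage markers tested, 3 were higher in HY/HY than in wild-type mice at 8°C (*Mrc1*, *Csf1r* and *Cd163*), with a sum of 169 to 257 against 113 to 126 CPM. Of the white adipocyte markers, the adipokine genes *Lep* and *Retn* were higher in HY/HY animals at 8°C, and of the thermogenic markers 6 of 8 were lower.

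Of 7 mammary epithelial markers tested, *Cldn3* and *Epcam* fell with cold in wild-type mice, and the list's sum was 2109 to 3828 CPM at 30°C and 1411 to 1557 CPM at 8°C. In HY/HY animals it was 551 to 1552 and 911 to 1336 CPM. Of 7 skeletal muscle markers tested, 6 fell with cold in wild-type mice, where replicate 2 at 30°C alone held 1335 CPM, and none of the 6 then tested was called without that library. Without it the endothelial markers called were 1 of 6 and the mammary markers 0 of 7. Lymph node markers (7 tested, 4.62 to 19.1 CPM in sum), erythrocyte markers (3 tested, 96.0 to 346 CPM) and smooth muscle markers other than *Mylk* had no call in the 5 comparisons. The part of these cells in the members' levels was not tested.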
